A study of Mus musculus with 4 samples.

Results

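The ATF4 stress pathway was followed through 9 genes: the transcription factors Atf4 and Atf5, the targets Chac1, Trib3, Ddit3, Ddit4, Sesn2 and Asns, and Gdf15, a secreted factor. They were taken by symbol from the gene list of the deposited count tables, where 9 of 9 were found among 20672 genes. The members were chosen by their symbols after earlier results of these data had shown several of them high in the newborn library, that is, selected on UMI counts at P0 against the other libraries. That contrast is therefore given as a description and supports nothing by itself. The data are single-cell transcript counts from 4 libraries of dissociated mouse kidney, 1 for each group, and the series is about maturation stages of the kidney. The transplant group came from C57BL/6N embryonic kidneys taken at E12.5 and grown in fat of the host epididymis for 12 days, wild type by label. The E15.5 group was wild-type ICR kidney, the E17.5 group wild-type C57BL/6 kidney and the P0 (newborn) group wild-type ICR kidney. No group received a drug or carries a deletion in the labels. The labels give the host as NOD immunodeficient in the design text and as C57BL/6N in the sample's own field. Strain therefore cannot be told apart from stage at E17.5, and strain, host, site and time of growth cannot be told apart in the transplant. How many animals were pooled for a library is not given in the sources used here.

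ATF4 is the effector of the integrated stress response. When amino acids run short, unfolded protein builds up in the endoplasmic reticulum, haem is lacking or mitochondria fail, kinases phosphorylate eIF2α, general translation falls and the Atf4 and Atf5 messages are translated better. ATF4 then turns on genes for amino acid uptake and synthesis, glutathione breakdown, mTORC1 restraint and, with CHOP, cell death. It binds composite elements in which a C/EBP half-site abuts an ATF half-site. GDF15 is a hormone of the TGF-β family that is made by stressed cells, acts through GFRAL and RET in the hindbrain to lower food intake, and is under the control of ATF4, CHOP and p53 in various tissues.

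The promoters that carry the letters of such a composite element are those of Chac1, Trib3 and Asns. They are shown because Trib3 was, of the genes ranked, the one most like Chac1 over the kidney's cell classes. Promoter sequence from RefSeq (GRCm38.p6), matched for 9 of 9 genes, was searched on both strands for TGATGNAA and for its variant TGACGNAA. TGATGNAA was found in 3.97% and TGACGNAA in 1.59% of 32851 promoters of the same length (250 bases before and 50 bases from the start site). The windows below run 5′ to 3′ on the gene's own strand, and capitals mark the matches. The Chac1 window is chr2:119350992-119351241 on the plus strand, the Trib3 window chr2:152344031-152344310 on the minus strand and the Asns window chr6:7693210-7693459 on the minus strand.
Chac1: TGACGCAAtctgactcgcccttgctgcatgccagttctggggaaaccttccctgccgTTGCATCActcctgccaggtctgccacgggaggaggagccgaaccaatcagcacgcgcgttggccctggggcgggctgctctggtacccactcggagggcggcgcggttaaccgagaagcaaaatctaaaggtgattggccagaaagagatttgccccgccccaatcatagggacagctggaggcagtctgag
Trib3: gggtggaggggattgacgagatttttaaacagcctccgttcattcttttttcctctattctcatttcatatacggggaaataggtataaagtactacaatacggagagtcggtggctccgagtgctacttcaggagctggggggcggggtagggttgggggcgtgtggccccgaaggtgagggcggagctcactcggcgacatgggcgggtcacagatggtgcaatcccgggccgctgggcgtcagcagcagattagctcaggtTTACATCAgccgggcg
Asns: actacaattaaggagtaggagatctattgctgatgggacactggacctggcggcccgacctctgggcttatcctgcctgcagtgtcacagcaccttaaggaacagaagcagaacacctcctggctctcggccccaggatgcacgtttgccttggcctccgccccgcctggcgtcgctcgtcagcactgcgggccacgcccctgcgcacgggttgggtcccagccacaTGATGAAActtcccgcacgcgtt
With the start site as position 0, Chac1 held TGACGCAA from -250 to -243 and TTGCATCA, a TGATGNAA match on the opposite strand, at -193 to -186. Trib3 held TTACATCA, also on the opposite strand, at 14 to 21, and Asns held TGATGAAA at -23 to -16. The windows of Gdf15, Ddit3, Ddit4, Sesn2, Atf4 and Atf5 held neither string. In the annotation (GENCODE M21, GRCm38) Chac1 lies at chr2:119351229-119354381 on the plus strand, Trib3 at chr2:152337422-152344032 and Gdf15 at chr8:70629393-70632456, both on the minus strand. A match is a description of the letters and no match says only that they are not in the window. The hypoxia core ACGTG, present in 19.6% of all promoters, was found in the windows of Gdf15, Ddit3, Ddit4 and Asns.

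The libraries held 4158 (E15.5) to 10810 (P0) barcodes, of which 3463 to 7568 cells were used. Median UMIs per cell, where a UMI is 1 counted transcript molecule, were 6276.5 in the transplant, and 22585, 7197.5 and 9885.5 at E15.5, E17.5 and P0. Between 19 and 60 barcodes were shared by any pair of libraries. Median mitochondrial shares lay between 3.34% and 3.81%. The P0 library, wild type by label, held 8181 tdTomato UMIs and the other libraries held 0. Cells were assigned to classes by marker genes, and each class was checked on its own markers: 7 of 7 nephron progenitor, 7 of 7 ureteric tip and 8 of 8 collecting duct markers were at least 2-fold above the other cells. In stage order (E15.5, E17.5, P0) there were 645, 535 and 646 progenitors and 79, 120 and 225 tip cells, with 1 progenitor and 0 tip cells in the transplant. Collecting duct cells numbered 228 in the transplant, and 61, 244 and 366 by stage. A level below is a gene's summed UMIs scaled to all UMIs of the class in that library (CPM), with an exact Poisson 95% interval in brackets. Intervals cover counting error only. With 1 library a group no test between groups exists, the spread between animals is not measured, and "higher" or "lower" compares libraries. In such class sums, fewer expressing cells and less RNA per cell cannot be told apart; shares of cells are given further on.

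In nephron progenitors, 7 of 9 members were at least 2-fold higher at P0 than at E15.5, against 7.68% of the 11919 genes that could be compared (at least 20 UMIs over both libraries). In ureteric tip cells it was also 7 of 9, against 9.34% of genes, and in collecting duct 7 of 9, against 6.94%. Stroma, the interstitial mesenchyme, had 4 of 7, against 7.96%. The median log2 ratio of the members was 2.77 in progenitors, 2.68 in tip and 2.46 in collecting duct. The median over all genes lay between -0.37 and -0.02 in the 10 classes compared, so the members stood above a slightly negative centre. The choice of members used this contrast, so nothing is read from these counts. P0 was set against the other libraries in that choice, so the members' lower levels in the E17.5 and transplant libraries are description too. The order among the members, the cell classes and the cells that carry them are likewise described without a test.

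Atf4 itself was higher at P0 in every class compared. In progenitors its level was 136 CPM [130, 142], 168 CPM and 504 CPM [490, 519] in stage order (E15.5, E17.5, P0). In tip cells the levels were 135, 169 and 590 [564, 617], and in collecting duct 123 [112, 136] in the transplant, and 132, 222 and 728 [700, 756] at the 3 stages. The P0 library stood alone, and the others were lower and closer together. The ratio of P0 over E15.5 was 3.71 [3.53, 3.90] in progenitors, 4.38 [3.90, 4.92] in tip and 5.53 [4.87, 6.29] in collecting duct. Over 10 of 10 classes the log2 ratio ran between 1.27, in stroma, and 2.46, in collecting duct, and each was at least 2-fold higher, where 6.05% to 12.4% of all genes were.

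Atf5, the related factor that is translated in the same way, did not share this. Its progenitor level was 26.1, 15.2 and 32.0 CPM at E15.5, E17.5 and P0. At P0 against E15.5, 0 of 10 classes were at least 2-fold higher, where 6.05% to 12.4% of all genes were. Stroma was among its highest classes, with 35.1 CPM in the transplant, and 37.6 [34.8, 40.5], 26.2 and 33.2 CPM at the 3 stages. Podocytes, the filtration cells of the glomerulus, were low, with 8.48 CPM in the transplant, and 6.59, 8.72 and 7.14 CPM. The gene overlaps Nup62 and Il4i1 on the opposite strand, and how the counting treated strand is not given in the sources used here, so its values are uncertain.

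Chac1, an enzyme that breaks down glutathione, was close to absent outside the P0 library, where its highest level in the classes described was 3.96 CPM [2.54, 5.89], in transplant endothelium. In progenitors it had 7 UMIs (0.416 CPM [0.167, 0.857]) at E15.5, 1 UMI at E17.5 (0.206 CPM), and 411 UMIs (43.5 CPM [39.4, 48.0]) at P0. In tip cells it had 3 and 0 UMIs at E15.5 and E17.5, and 106 UMIs (31.9 CPM [26.1, 38.5]) at P0. In collecting duct it had 0 UMIs in the transplant, where a count of 0 in 228 cells allows a share of cells with a UMI, not of cells expressing the gene, of up to 1.32%, and 0, 2 and 198 UMIs at the 3 stages, the last 53.6 CPM [46.4, 61.6]. The P0 level in progenitors was 105-fold [50.4, 262] that at E15.5, and in collecting duct at least 36.2-fold, taking 3 counts in the E15.5 class as the floor (the exact interval starts at 29.2).

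Within the P0 library Chac1 differed between classes. Collecting duct and progenitors were the highest, and their intervals overlapped. Tip cells came next, below progenitors with no overlap, and tip, early nephron (28.6 CPM [25.7, 31.8]) and distal tubule (18.1 CPM [9.03, 32.4]) each overlapped the neighbour in the order. Endothelium held 13.7 CPM [11.5, 16.2] and loop of Henle 13.4 CPM. Podocytes (7.14 CPM), proximal tubule (6.47 CPM) and mural cells (4.58 CPM) were lower, near the 5.16 CPM of the P0 barcodes left out for too few genes. Stroma was the lowest class, with 6 UMIs in 730 cells (1.16 CPM [0.427, 2.53]), below those barcodes, so the level that free RNA gives is not fixed by either. The progenitor level was 37.4-fold [17.0, 103] that of stroma, the class with the lowest value, and was also above the 5.16 CPM of the barcodes with few genes. Endothelium was the class with the most even presence of Chac1, with 3.96 CPM in the transplant, and 2.29 [1.31, 3.72], 1.48 and 13.7 CPM at the 3 stages, and the intervals of transplant and E15.5 overlapped.

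Trib3, a pseudokinase that ATF4 and CHOP turn on and that binds ATF4 in return, followed the same course in progenitors, tip and collecting duct. Progenitors had 4 and 0 UMIs at E15.5 and E17.5 and 237 UMIs at P0, which is 0.238, 0 and 25.1 CPM [22, 28.5]. Collecting duct had 3 UMIs in the transplant (0.892 CPM), and 2, 6 and 99 UMIs at the 3 stages (0.986, 2.75 and 26.8 CPM [21.8, 32.6]). Here too P0 was the high library, and collecting duct, progenitors, distal tubule (19.7 CPM [10.2, 34.5]) and tip (17.7 CPM [13.5, 22.9]) the high classes, each overlapping the next. The ratio of P0 over E15.5 was 106 [40.7, 391] in progenitors, 15 [4.88, 74.7] in tip and 27.2 [7.33, 227] in collecting duct. The tip and collecting duct ratios rest on 3 and 2 UMIs at E15.5, and the tip log2 ratio was 1.31 with cells thinned to equal depth, against 3.70 without thinning. Stroma held 2.33 CPM [1.20, 4.07] at P0, and the barcodes with few genes 4.37 CPM. In endothelium the transplant level of Trib3, 4.12 CPM [2.67, 6.09], overlapped that at P0, 6.50 CPM [5.03, 8.27].

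**Figure D1:**
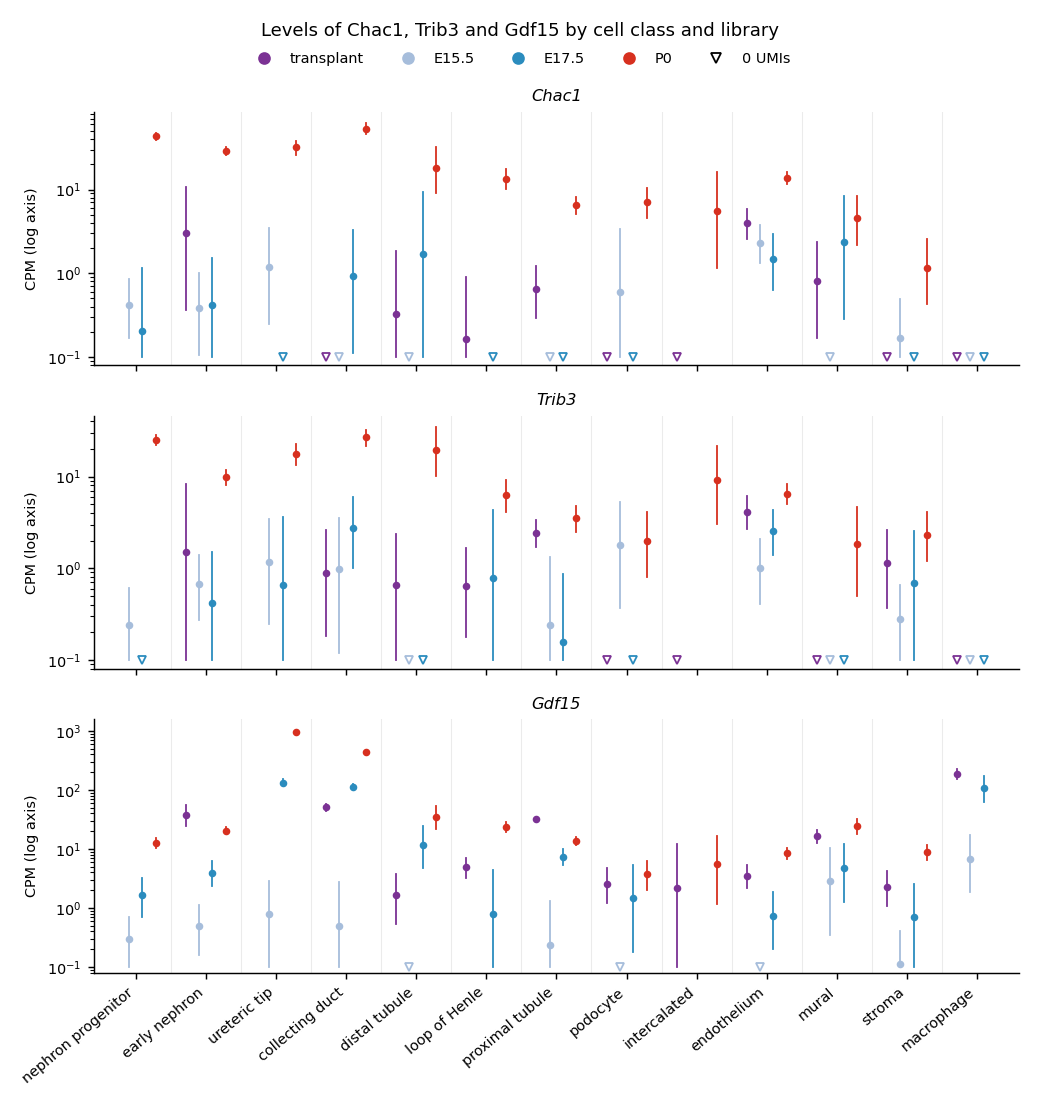
Levels of Chac1, Trib3 and Gdf15 (CPM, log axis) by cell class, with the transplant first and then E15.5, E17.5 and P0. Points are class sums of 1 library, with lines for exact Poisson 95% intervals, and open triangles mark classes with 0 UMIs. The P0 points of Chac1 and Trib3 stand above those of the other libraries in progenitors, tip and collecting duct, and Gdf15 reaches 953 CPM in P0 tip cells.

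Trib3 was the gene most like Chac1 in its levels, where likeness was ranked for Chac1 and Gdf15 only. Over 44 sums of a class in a library (each of at least 50 cells), the Pearson correlation of log2(CPM + 10) with Chac1 was highest for Trib3 (0.941) among 13324 genes, then Cars (0.821), Ifrd1 (0.812), Atf4 (0.806) and Actg1 (0.782). Ddit3 ranked 19 (0.713) and Gdf15 160 (0.521). The 44 points share libraries and depth, and the members were chosen on their P0 counts, so these values are a description. Ifrd1, one of the 5, had 39.8 CPM in transplant collecting duct, and 28.6, 255 and 1542 CPM at the 3 stages.

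Ddit3 encodes CHOP, the partner of ATF4 in the later stress response. Its progenitor level was 11.9 CPM [10.3, 13.6] in the E15.5 library, 35.4 [30.3, 41.1] in E17.5 and 209 [200, 219] in P0. In tip cells it was 6.70, 34.2 and 126 [114, 138] CPM. The 3 stages had separate intervals, with E17.5 between the others. Ddit3 was high at P0 in classes other than progenitors, tip and collecting duct too: distal tubule held 181 CPM, podocytes 169, mural cells 116 and stroma 80.9. Its P0 progenitor level was 2.59-fold [2.33, 2.88] that of stroma, where that of Chac1 was 37.4-fold [17.0, 103]. Chac1 was itself at least 2-fold higher at P0 than at E15.5 in 7 of 7 classes compared. For Ddit3, P0 over E15.5 was 17.6 [15.2, 20.5] in progenitors and 5.10 in stroma, and 10 of 10 classes were at least 2-fold higher. Over the 10 classes, 6.05% to 12.4% of all genes were at least 2-fold higher. Ddit3 overlaps the methionyl-tRNA synthetase gene (Mars1, looked at for this reason after the values were seen) on the opposite strand, and the treatment of strand is not given in the sources used here. In progenitors Mars1 had 20.4, 25.9 and 15.9 CPM at the 3 stages, and the part of overlapping reads was not tested.

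Ddit4 and Sesn2 both restrain mTORC1, and their patterns differed. Ddit4, known also as a glucocorticoid and hypoxia target, had 129 CPM [120, 138] in transplant endothelium, and 25.9 [22.3, 30], 64.7 [58.1, 71.9] and 172 [164, 180] CPM in endothelium at E15.5, E17.5 and P0. Endothelium was above every other class in the transplant and at P0. Collecting duct, at 33 [25.6, 41.9] and 63.3 [53.1, 74.7] CPM, overlapped it at E15.5 and E17.5. In progenitors it had 11.9, 11.5 and 25 CPM. In tip cells it had 14.2, 25 and 69.4 CPM, and P0 was 4.89-fold [3.43, 7.15] E15.5. P0 was at least 2-fold higher in 9 of 10 classes, where 6.05% to 12.4% of all genes were. In collecting duct, however, the log2 ratio of 1.07 was 0.51 with a stricter gate on the cells. The share of endothelial cells with a Ddit4 UMI after thinning each cell to 5000 UMIs was 36.6% in the transplant, and 13.8%, 24.8% and 46.6% at the 3 stages. The stroma shares were 13.3% in the transplant, and 11.4%, 14.9% and 19.5%. Median depths before thinning were 8262 UMIs for endothelium and 6928 for stroma at P0, where the unthinned shares were 56.9% and 25.1%.

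Sesn2, a leucine sensor, had 5.29, 6.17 and 36.1 [32.4, 40.2] CPM in progenitors and 6.31, 9.20 and 41.5 [34.8, 49.0] CPM in tip cells. E15.5 and E17.5 were close there and P0 stood above them, 6.83-fold [5.40, 8.73] and 6.57-fold [3.91, 11.8] over E15.5. In collecting duct it was at 41.6 CPM in the transplant, and 27.6, 19.7 and 49.0 CPM at the 3 stages, and P0 was 1.77-fold [1.31, 2.44] E15.5. Over all classes Sesn2 was at least 2-fold higher in 5 of 10, where 6.05% to 12.4% of all genes were.

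Asns makes asparagine and is a textbook ATF4 target, yet it stayed near its E15.5 level. Progenitors held 9.80, 9.26 and 14.4 CPM at E15.5, E17.5 and P0, and stroma 3.17 CPM in the transplant, and 9.30, 5.58 and 5.82 at the 3 stages. Tip cells held 21.9 CPM at P0 and 19.3 at E15.5. P0 over E15.5 was 1.47 [1.16, 1.86] in progenitors and 0.626 [0.409, 0.927] in stroma. Only collecting duct, of 8 classes compared, was at least 2-fold higher (2.23 [1.23, 4.34], 15.4 against 6.90 CPM), and 6.94% of all genes were in that class. The Asns ratio turned round with cells thinned to equal depth (log2 -0.53). That value rests on fewer UMIs than the 57 at P0 and 14 at E15.5 before thinning, with no minimum applied, and is imprecise.

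**Figure D2:**
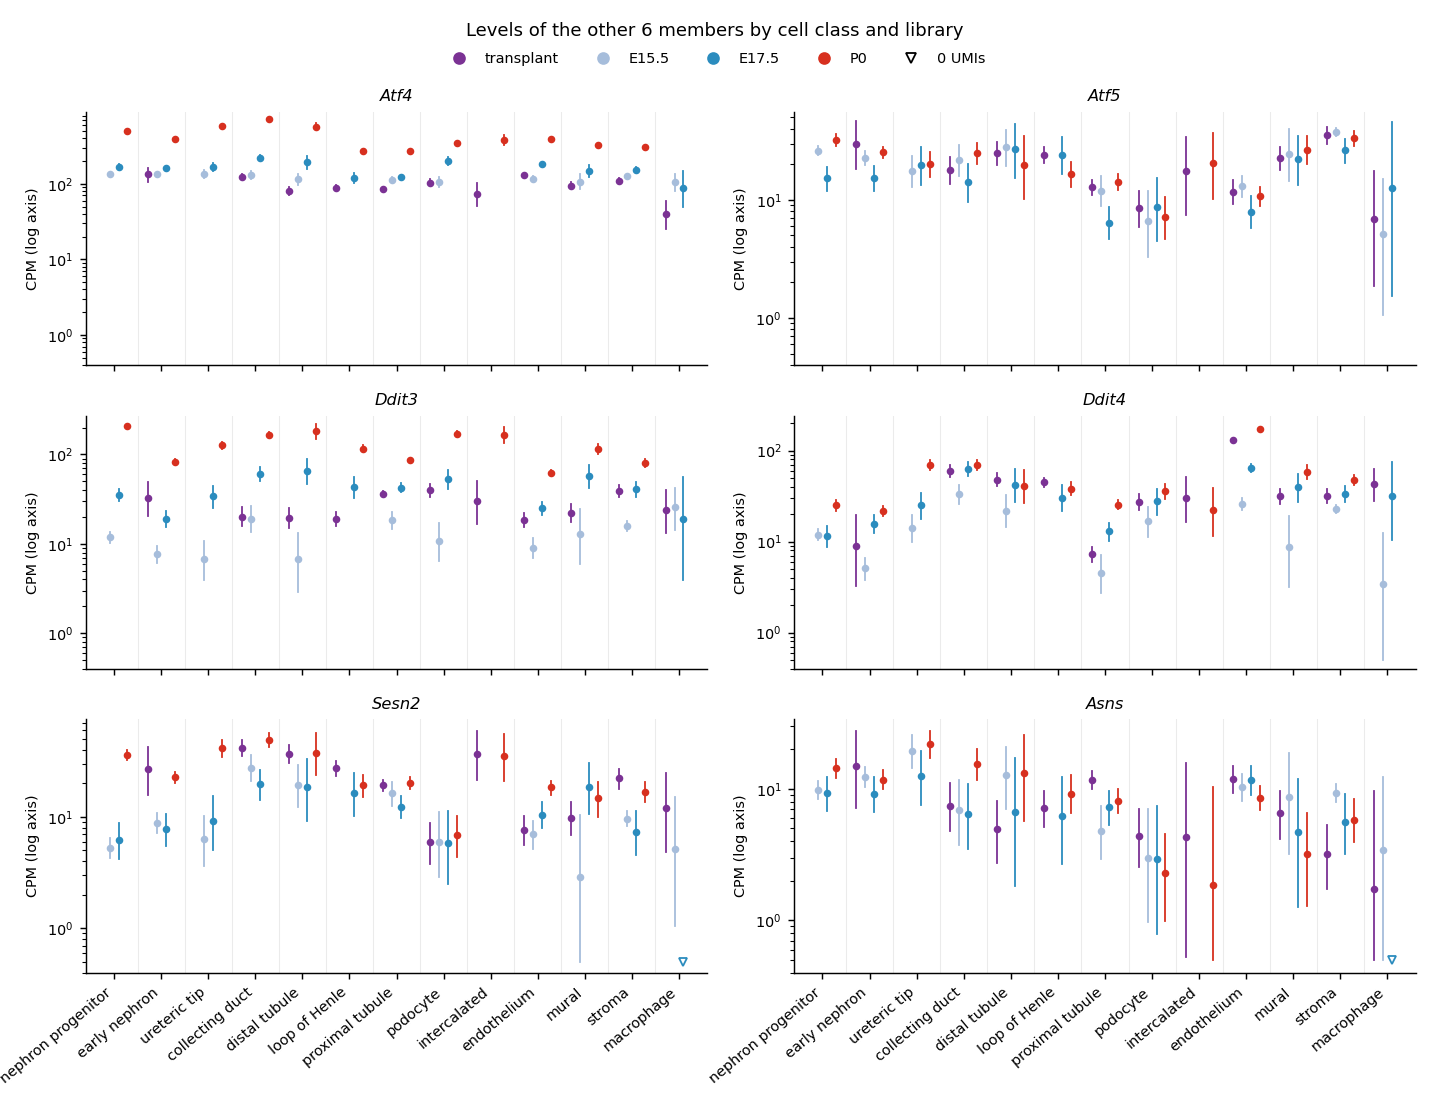
Levels of Atf4, Atf5, Ddit3, Ddit4, Sesn2 and Asns (CPM, log axis) by cell class, with the transplant first and then E15.5, E17.5 and P0. Points are class sums of 1 library with exact Poisson 95% intervals. The P0 points of Atf4 and Ddit3 lie above the rest in the classes compared, while those of Atf5 and Asns lie among the others.

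Gdf15 had another distribution. Tip and collecting duct were its highest classes at P0, where macrophages gave no value, and macrophages were above collecting duct in the transplant, which has no tip class. In tip cells it had 2 UMIs in the E15.5 library (0.789 CPM), 203 in E17.5 (133 CPM [116, 153]) and 3173 in P0 (953 CPM [921, 987]). In collecting duct it had 170 UMIs in the transplant (50.6 CPM [43.2, 58.8]), and 1, 243 and 1601 UMIs at the 3 stages (0.493, 111 [97.8, 126] and 433 [412, 455] CPM). The E15.5 ureteric cells were almost empty of it, E17.5 was intermediate and P0 highest. Because only 2 UMIs were seen at E15.5, the tip ratio of P0 over E15.5, 1209, has the wide interval [334, 9987]. The collecting duct ratio, 879 [157, 34731], rests on 1 UMI.

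At P0 tip and collecting duct did not overlap each other or any other class. The next class was distal tubule at 34.5 CPM [21.4, 52.8], then mural cells (24.3), loop of Henle (23.8), early nephron (20.5), proximal tubule (13.7), progenitors (12.6), stroma (8.73), endothelium (8.47), intercalated cells (5.57) and podocytes (3.72). None of these exceeded the 37.7 CPM of the P0 barcodes left out for too few genes. Of progenitors thinned to 5000 UMIs 4.41% [2.95, 6.31] had a UMI, and of stroma 3.51% [2.16, 5.38], with unthinned shares of 14.9% and 5.75% at median depths of 12622.5 and 6928 UMIs. Thinned shares were 6.00% [4.26, 8.17] in proximal tubule, 4.26% [2.87, 6.07] in early nephron and 9.04% in loop of Henle, with a lower bound of 6.27% (unthinned 12.2%, median depth 8727 UMIs). Set against stroma, the levels were 1.44-fold [1.02, 2.08] in progenitors, 1.57-fold [1.12, 2.23] in proximal tubule, 2.35-fold [1.70, 3.30] in early nephron and 2.73-fold [1.90, 3.97] in loop of Henle. They were thus above stroma and below the barcodes with few genes, so expression in these classes cannot be told apart from free RNA here. All 9 of 9 classes compared were at least 2-fold higher at P0 than at E15.5 for Gdf15, these classes included. Of all genes, 6.05% to 12.4% were at least 2-fold higher over the 10 classes.

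The P0 tip and collecting duct cells also differed within each class. With each cell thinned to 5000 UMIs, 0 of 78 tip cells had a Gdf15 UMI for E15.5, 22.2% [14.8, 31.2] of 108 for E17.5 and 60.5% [53.7, 67.0] of 220 for P0. The median P0 tip cell had 1 UMI, the upper quartile was 6.25 and the highest cell had 37. The top 10% of cells held 47.4% of all Gdf15 UMIs in P0 tip and 65.1% in P0 collecting duct, where 35.8% [30.4, 41.5] of 302 thinned cells had a UMI. Gdf15 was thus carried by many tip cells and by a smaller, strongly positive share of collecting duct cells. Unthinned shares at P0 were 71.1% in tip (median depth 13283 UMIs), 39.1% in collecting duct (9367.5 UMIs) and 5.75% in stroma (6928 UMIs). In P0 collecting duct the level was 222 CPM [199, 248] in cells above the median mitochondrial share and 567 CPM [536, 599] in the rest, and 513 CPM above the median depth and 247 CPM in the rest. The part of cell quality in this was not tested.

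In the tip and collecting duct, macrophage markers were low: 6 of 7 had a UMI in P0 tip and 5 of 7 in P0 collecting duct, where they summed to 2.70 and 2.98 CPM. Collecting duct markers in P0 ureteric tip cells summed to 66.4 CPM, beside 988 CPM for the ureteric tip markers themselves. Macrophages, cells known to secrete GDF15, held 186 CPM [152, 224] in the transplant, and 6.83 and 108 [62.9, 173] CPM at E15.5 and E17.5, on 108, 4 and 17 UMIs. P0 had 1 macrophage and gives no value. Of the receptor genes, Gfral had 0 UMIs in tip and collecting duct, while Ret, a tip marker used to choose the cells, was at 212, 176 and 184 CPM in tip cells.

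The genes most like Gdf15 over the 44 sums were Tbc1d9 (0.774), Lif (0.722), Tmem171 (0.721), Nfkb2 (0.714) and Nrg1 (0.701), none of them a member. The correlation with Trib3 was 0.524. Lif, a cytokine of the IL-6 family, had 2.38 CPM in transplant collecting duct, and 0, 0 and 22.2 CPM at the 3 stages. Nrg1, an ERBB ligand, had 2.38 CPM in transplant collecting duct, and 4.44, 6.42 and 60.9 CPM. Tmem171 was at 14.2, 30.2 and 166 CPM in tip cells.

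Chac1 was spread over many P0 progenitors at low counts. A UMI was seen in 7 of 645 progenitors (1.09%) for E15.5, 1 of 535 (0.187%) for E17.5 and 243 of 646 (37.6% [33.9, 41.5]) for P0. Thinned to 5000 UMIs the shares were 0.312% of 640, 0.204% of 489 and 18.3% [15.3, 21.5] of 635 cells. Median depths of the progenitors were 24875, 7611 and 12622.5 UMIs. In P0 stroma it was 6 of 730 (0.822%), or 0.351% thinned, at a median depth of 6928 UMIs. The P0 progenitor share is thus far above that of stroma. In P0 collecting duct 16.2% [12.3, 20.9] of thinned cells had a Chac1 UMI, and in P0 tip 10.5% [6.74, 15.3]. The unthinned shares were 26.0% and 28.9%, at median depths of 9367.5 and 13283 UMIs.

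Chac1 differed little between P0 progenitors divided by depth, mitochondrial share, cycling or tdTomato. Chac1 was 45.0 CPM above and 40.5 CPM at or below the median depth, and 41.6 and 45.1 CPM above and below the median mitochondrial share. It was 43.6 CPM in cells with Mki67 or Top2a and 43.4 CPM in cells with neither, and 45.0 CPM in cells with and 42.8 CPM in cells without a tdTomato UMI. Cells with Cited1, a marker of uncommitted progenitors, and no Wnt4 (193 cells) had 49.6 CPM [41.1, 59.3], and cells with Wnt4, a marker of commitment, and no Cited1 (77 cells) had 35.6 CPM [25.0, 49.0], so the intervals overlapped. For Ddit3 the same parts had 256 [236, 277] and 118 [98.3, 141] CPM, and did not overlap.

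Members met in the same cells to different degrees. With cells thinned to 5000 UMIs, of P0 progenitors with a Chac1 UMI, 70.7% [61.5, 78.8] of 116 also had Ddit3, against 49.5% [45.1, 53.9] of 519 without. For Trib3 the shares were 11.2% [6.10, 18.4] with Chac1 and 8.09% [5.89, 10.8] without, which overlap. In P0 collecting duct, Gdf15 was seen in 49.0% [34.4, 63.7] of cells with Chac1 and 33.2% [27.4, 39.4] of cells without. In P0 tip cells, Ddit3 was seen in 46.6% of cells with Gdf15 and 44.8% of cells without, and Chac1 in 11.3% and 9.20%. At 5000 UMIs a cell the detection of such low genes is sparse, and these shares do not show that the genes are independent.

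**Figure D3:**
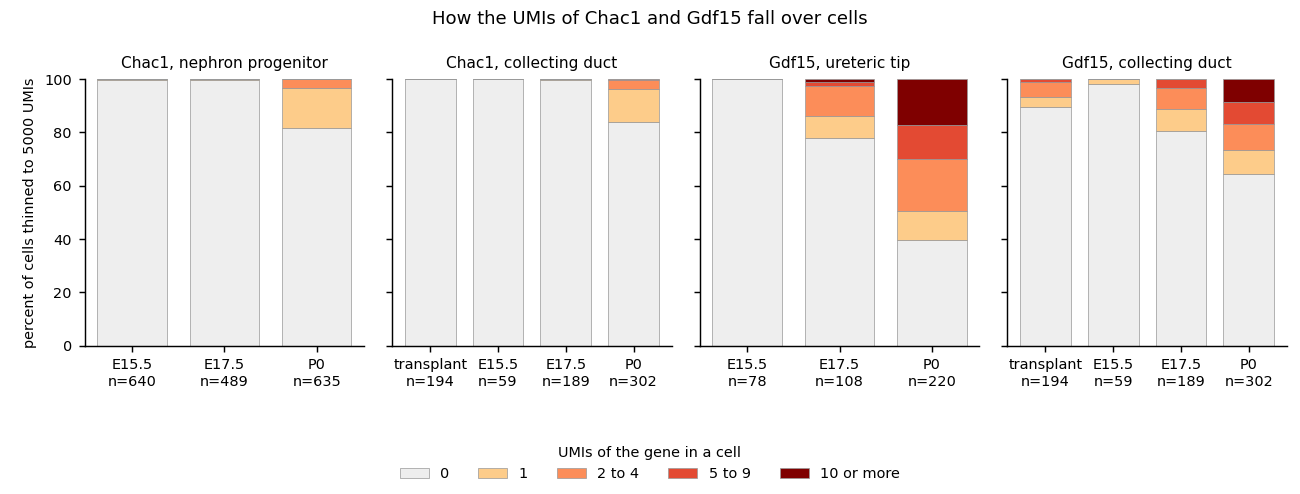
Percent of cells by number of UMIs per cell (stacked bars) for Chac1 in progenitors and collecting duct and Gdf15 in tip and collecting duct, each cell thinned to 5000 UMIs, with the transplant first where it has the class and then E15.5, E17.5 and P0. Chac1 reaches 18.3% of P0 progenitors, and Gdf15 60.5% of P0 tip cells.

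The rest of the pathway was followed in lists of known genes, given as counts at least 2-fold higher at P0 than E15.5 in progenitors, tip and collecting duct. Each list is to be read against 7.68%, 9.34% and 6.94% of all genes in these classes. Amino acid transporters were higher in 5 of 8 in each class, with median log2 ratios of 1.35, 1.22 and 1.08. The highest with at least 50 UMIs were Slc3a2, the heavy chain of the large neutral and cystine exchangers (2.09 in progenitors), and Slc7a11, the cystine carrier (2.21 in tip and 4.24 in collecting duct). The stress effectors, factors and regulators downstream of ATF4, were higher in 7 of 9, 5 of 8 and 6 of 8 (medians 2.16, 1.87 and 2.40). Atf3, a stress-induced repressor, had 111 CPM in transplant collecting duct, and 81.3, 617 and 1549 CPM at the 3 stages.

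The biosynthetic arm differed from this. Amino acid synthesis genes were higher in 2 of 10, 1 of 10 and 1 of 10, with medians of 0.07, -0.05 and -0.08. The counts of 1 of 10 are near the 9.34% and 6.94% of all genes, so they are no result about the list. Mthfd2, of mitochondrial folate metabolism, was the highest in collecting duct (2.04), and Pck2 and Mthfd2 the highest in progenitors (1.15 and 1.58). Among tRNA synthetases 1 of 12 was higher in each class, which is also near the share of all genes. It was Cars, the cysteinyl enzyme (1.84, 1.76 and 2.40), against medians of -0.04, -0.28 and 0.07. The paralogs of the members were mostly near or below the medians, with 1 of 6, 2 of 6 and 2 of 6 higher: Chac2, which also degrades glutathione, was lower at P0 in progenitors (log2 -1.26) and Trib1 higher (2.37).

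The neighbouring stress programmes were mixed. ER unfolded protein response genes were at least 2-fold higher in 3 of 15 in each class (medians 0.18, 0.17 and 0.15), among them Herpud1, an ER degradation factor (3.01, 3.41 and 2.96). Mitochondrial chaperones and proteases were higher in 0 of 6 in each class. The eIF2α kinases and their control were higher in 0 of 9, 1 of 9 and 1 of 9, near the 7.68%, 9.34% and 6.94% of all genes. The exception was Eif2ak3, the ER-stress kinase PERK, with 3.94, 13.8 and 23.4 CPM in tip, and 12.2 CPM in the transplant and 10.4, 18.8 and 42.5 CPM at the stages in collecting duct. In progenitors it was at 4.99, 3.91 and 4.66 CPM.

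Lists of other stress and hormone programmes had higher genes too. The p53 targets were higher in 6 of 14, 5 of 12 and 5 of 13, hypoxia genes in 5 of 12, 6 of 12 and 8 of 12, and glucocorticoid response genes in 4 of 8, 3 of 7 and 5 of 8. Sgk1, a steroid-induced kinase, had 111 CPM at P0 against 4.16 CPM at E15.5 in progenitors. The dissociation stress list, immediate-early and heat-shock genes that dissociation of tissue is known to raise, was also higher, in 12 of 20, 14 of 20 and 10 of 20 (medians 1.76, 2.14 and 1.01). Their part in the members' levels was not tested, and their values are set beside each library. Summed, the 20 genes were at 4525, 11587 and 10357 CPM in progenitors, and 4541, 12618 and 15351 CPM in tip. In collecting duct they were at 12018 CPM in the transplant, and 6892, 20127 and 15989 CPM at the 3 stages. Genes of the list differed in course: of 2 chosen after their values were seen, Fos was at 236, 2069 and 386 CPM in progenitors and Hspa1a at 0.416, 44.2 and 130 CPM.

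**Figure D4:**
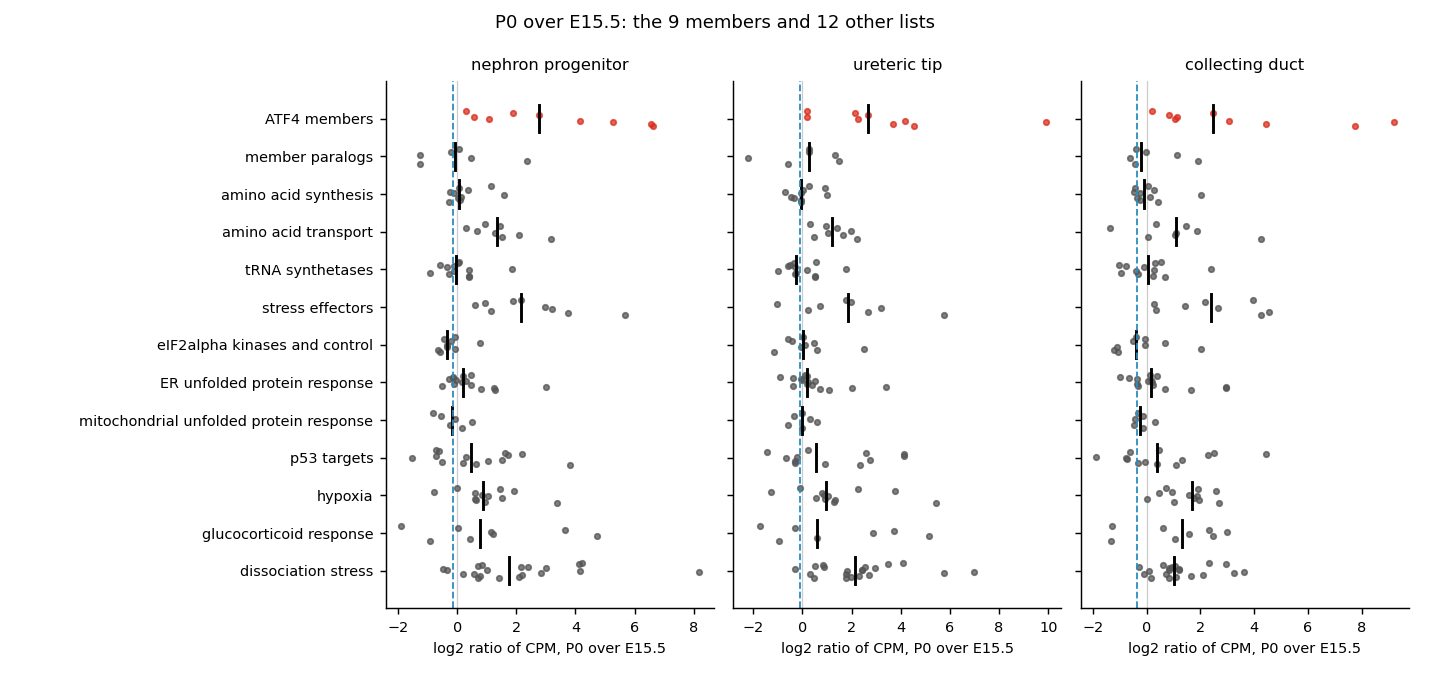
Log2 ratio of P0 over E15.5 for the 9 members and 12 other lists in progenitors, tip and collecting duct. Each point is a gene that could be compared, the black bar is the list's median and the blue dashed line the median over all genes. The members, the stress effectors, the amino acid transporters and the dissociation genes have medians above 1 in each class. In collecting duct most of the compared hypoxia and glucocorticoid genes were at least 2-fold higher too. The synthesis and tRNA synthetase lists lie around 0.

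At E17.5 most members that could be compared were within 2-fold of E15.5. Against E15.5, 1 of 6 was at least 2-fold higher in progenitors (5.43% of all genes, and 2 of 7 with no doublet removal), 2 of 7 in tip (6.64%) and 2 of 7 in collecting duct (5.23%). These were Ddit3, at 2.98-fold [2.42, 3.67] in progenitors, 5.10-fold [2.90, 9.40] in tip and 3.15-fold [2.19, 4.62] in collecting duct, and Gdf15 in the ureteric classes. The Gdf15 ratios, 169 [46.2, 1406] in tip and 226 [40.2, 8960] in collecting duct, rest on 2 and 1 UMIs at E15.5. Atf4 was at least 2-fold higher in 0 of 11 classes, where 5.23% to 11.5% of all genes were, and Chac1 and Trib3 had too few UMIs to be compared in these classes. The dissociation genes were higher in 16 of 20, 13 of 18 and 15 of 20 in the same classes, and their part was not tested. This comparison and that of P0 share the E15.5 library, so a low value there enters both.

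Of progenitors, tip and collecting duct, the transplant had only the collecting duct class. Against P0, 6 of 9 members were at least 2-fold lower there (6.24% of all genes), with a median log2 ratio of -2.56 where the median over all genes was 0.53. Members were chosen on counts at P0 against the other libraries, so nothing is read from this count. Chac1, with 0 UMIs against 198 at P0, was at least 60.1-fold lower by the same floor of 3 counts (the exact interval starts at 48.4). Trib3, on 3 UMIs, was at 0.0333 [0.00675, 0.100] of its P0 level. Gdf15 was 8.57-fold [7.31, 10.1] lower, Ddit3 8.14-fold [6.32, 10.6], Atf4 5.91-fold [5.33, 6.57] and Asns 2.07-fold [1.28, 3.47]. Sesn2 (0.850 [0.677, 1.07]), Ddit4 (0.859) and Atf5 (0.717) were near P0. The median over all genes lay between 0.18 and 0.53 in the classes compared with P0. Collecting duct markers summed to 6776 CPM in the transplant class and 6283 CPM in the P0 class, distal tubule markers to 7233 and 1531 CPM, and intercalated markers to 539 and 14.1 CPM. The marker makeup of the class thus differed between the libraries, and its part was not tested.

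The lower levels in the transplant held in other classes for Chac1, Ddit3 and Atf4. Chac1 was at least 2-fold lower than at P0 in 6 of 6 classes, Ddit3 in 10 of 10 and Atf4 in 10 of 10, where 4.42% to 14.1% of all genes were. The choice of members enters these counts as well, and they are a description. In podocytes 3 of 8 members were lower (8.74% of genes) and in stroma 3 of 7 (7.33%), and in proximal tubule 4 of 9 were lower (5.62%). In the transplant collecting duct, Slc7a11 had 0 CPM against 32.5 CPM at P0, Psat1, of serine synthesis, 20.2 against 106 CPM, and Cars 18.4 against 76.6 CPM. The list of dissociation genes had 3 of 20 higher and 4 of 20 lower in this class, where 26.9% of all genes were higher and 6.24% lower. Its median of -0.11 was below the median over all genes given above for this class.

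The members differed in direction in the transplant's proximal tubule. Gdf15 was at 32.0 CPM [29.1, 35.1] there, against 13.7 CPM [11.6, 16.0] at P0, a ratio of 2.34 [1.94, 2.83], where the P0 level lies below that of the P0 barcodes with few genes. Asns was at 1.45 [1.12, 1.90] of its P0 level, and Sesn2 (0.949), Atf5 (0.897) and Trib3 (0.694 [0.425, 1.13]) were within 2-fold. Chac1 was 10.0-fold [5.01, 22.8], Ddit4 3.53-fold, Atf4 3.21-fold and Ddit3 2.36-fold lower. Gdf15 was the 1 member of 9 at least 2-fold higher in that class, which is close to the 11.5% of all genes, so the count is no result about the members. A UMI was seen in 21.7% of transplant proximal cells and 15.5% at P0, or 10.9% [8.90, 13.3] and 6.00% [4.26, 8.17] thinned, against thinned stroma shares of 1.39% and 3.51%. Median depths were 12088 and 14980 UMIs in proximal tubule, and 5995 and 6928 UMIs in stroma. Macrophage markers in proximal tubule summed to 17.1 CPM in the transplant, with 7 of 7 seen, and 11.5 CPM at P0, with 6 of 7 seen, and their part was not tested.

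Against E17.5, which has the C57BL/6 background by label, the transplant's collecting duct had 2 of 7 members at least 2-fold lower (5.13% of genes) and 1 higher (12.9%). With a stricter gate on the cells 1 was lower, since Gdf15 was then less than 2-fold lower. Gdf15 was 2.20-fold [1.80, 2.70] and Ddit3 2.99-fold [2.22, 4.07] lower, and Sesn2 2.11-fold [1.49, 3.05] higher. In proximal tubule Gdf15 was 4.34-fold [3.21, 5.99] that at E17.5 (7.37 CPM), and in macrophages 1.72-fold [1.02, 3.06]. The transplant library enters both this comparison and that with P0, so the values are set side by side and not counted as 2 independent results.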

How the data were processed

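The 4 mouse kidney libraries, 1 for each group, were 10x Chromium 3′ v2 single-cell RNA libraries. The authors deposited raw UMI counts per gene and barcode, made with Cell Ranger 3.1.0 on GRCm38 per the submitters' processing notes. Per the file headers the matrices came from software version 3.0.2 (E15.5, P0) and 3.1.0 (E17.5, transplant). Strand handling and the treatment of reads shared by near-identical genes (Hspa1a and Hspa1b) are not given in the sources used here.

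Barcodes under 500 genes or over 20% mitochondrial UMIs were left out, and the highest Scrublet scores (0.8% per 1000 cells, scanpy 1.11.5) were removed. Each cell went to the marker class with the highest score, where a marker's scaled level is its log value over its 95th percentile and the score is the mean over markers (at least 2 markers seen, score at least 0.2, margin at least 0.05). This scoring rule was set after the data were seen. At P0, 103 progenitors, 35 tip cells and 61 collecting duct cells lay within 0.05 of a limit. Cells rich in globin were left undescribed.

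UMIs were summed per class and library. With 1 library a group there was no test. Ratios carry exact conditional binomial intervals and shares exact Clopper-Pearson intervals (scipy 1.17.1), for counting error only. Genes were compared with at least 20 UMIs over both libraries in classes of at least 30 cells. Log2 ratios had 0.5 counts added, and a count of 0 was given a floor of 3 counts over the class. The ratio code was checked on simulated counts. The members and lists were chosen with earlier results of these data known. Of each other list, the 2 highest and 2 lowest genes by log2 ratio with at least 50 UMIs could be named, and for likeness the 5 closest genes with at least 200 UMIs. Alternatives covered the gate, clusters, depth, doublets, filters, fold and centring. Positions are from GENCODE M21 and RefSeq.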

Additional observations from a re-analysis of the deposited data

Results flagged for a closer look

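Gdf15 differed in opposite directions between classes of the transplant. Against P0, its log2 ratio was 1.22 in proximal tubule and -4.3 in distal tubule, where it had 1.64 CPM [0.531, 3.82] in the transplant against 34.5 CPM [21.4, 52.8] at P0. The P0 levels of both classes, 13.7 and 34.5 CPM, did not exceed the 37.7 CPM of the P0 barcodes left out for too few genes, and the part of free RNA in these ratios was not tested. Against E17.5, its log2 ratio was 3.22 in early nephron and -1.14 in collecting duct. The transplant early nephron class held 52 cells, of which 30 lay within 0.05 of a limit of the assignment. Its loop of Henle markers summed to 785 CPM, beside 47.3 CPM at E17.5. With 1 library a group, neither difference was tested.

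The P0 library, wild type by label, held 8181 tdTomato UMIs, and the transplant, E15.5 and E17.5 libraries held 0. With only P0 cells free of a tdTomato UMI, 7 of the members were at least 2-fold higher than at E15.5 in progenitors, 7 in tip and 6 in collecting duct. This setting was chosen after seeing the data.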

How the results depend on the processing

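No paired analysis was possible because each group is 1 library, and for the same reason no replicate could be left out. Of 944 alternative values of member ratios, 891 lay inside the counting interval of the main ratio, 52 moved outside it and 1 turned round. The last was Asns at P0 over E15.5 in collecting duct, at log2 1.12, and -0.53 with cells thinned to 5000 UMIs. Turning round was counted only where the main log2 ratio was at least 1 in size, so smaller ratios could change sign uncounted. Ratios on few UMIs have wide intervals that alternatives meet easily, so the 891 are no measure of stability. Most that moved did so on thinning (19) and on centring on the median over all genes (14), and the cause was not tested. Of 102 alternative counts, 97 stayed within 1.5 times. The exceptions were members at least 2-fold higher at E17.5 in progenitors, 1 with doublets removed and 2 with no removal, and members lower in transplant than E17.5 collecting duct, 2 with the gate used and 1 with a stricter gate. Genes at least 2-fold higher at P0 in progenitors numbered 915, and 2056 with a minimum of 1 UMI, 1671 at a fold of 1.5 and 317 at a fold of 4. Members higher at P0 numbered 6 to 7 in progenitors and tip and 5 to 8 in collecting duct over the alternatives run. With classes taken from clusters, the clusters named collecting duct held 6 and 0 transplant cells, too few to be compared. The transplant collecting duct comparisons therefore have no such value. The cluster named intercalated held 239 transplant cells, where the marker gate gave 49 intercalated and 228 collecting duct cells. The transplant collecting duct ratios thus rest on the gate alone. Which clusters the 228 gated cells fell in was not tested. Gdf15 in tip (log2 9.92) was 7.51 with clusters. Depth limits the low genes: E15.5 ureteric cells held 1 to 3 UMIs of Gdf15 and Trib3, which leaves ratios there imprecise.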
